A study of Rattus norvegicus with 36 samples.

Results

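The genes described here encode complement and coagulation factors, the plasma proteins of innate defence and of clotting that the liver makes. A list of 41 genes was taken, and a gene counted as measured where a probe set of the array names it and no other gene. Of the 41, 35 were measured, among 14217 genes with such a probe set: 19 of 21 complement genes and 16 of 20 coagulation genes, the latter with fibrinolysis and its inhibitors. C2 and Cfb lie on 4 probe sets that name several genes, Kng1 lies on 1 such probe set, and no probe set of the annotation used names F7, F11 or F13b, so these 6 have no value here. Each measured gene is represented by its brightest probe set.

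Liver RNA came from 36 male Harlan Sprague Dawley rats, 7 weeks old at the start, with 1 Affymetrix array per animal. All 36 were gavaged with corn oil on 5 consecutive days, and 30 of them received in it TBBPA-DBPE, a brominated flame retardant derived from tetrabromobisphenol A. The 6 groups of 6 animals were vehicle (0 mg/kg), 3 lower doses of 0.1, 0.94 and 9.4 mg/kg, and 94.3 and 943 mg/kg above them, and necropsy followed 1 day after the last dose. The question of the design was whether a dose group differed from vehicle. The median log2 value of an array ran from 4.59 to 4.66, and no pair of arrays correlated below 0.989. The tissue carried the markers of its main cell type: the 9 measured hepatocyte genes had group means from 13.31 to 13.34, and no other cell type marker list had a group mean above 8.66.

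Complement is a chain of proteases and binding proteins that tags microbes and builds a pore in their membranes. It starts through the classical pathway, the lectin pathway or the alternative pathway, and all of them meet at C3. Coagulation is a parallel chain of proteases, several of which need vitamin K, that ends with thrombin cutting fibrinogen into fibrin, and plasmin later dissolves the clot. Hepatocytes secrete most of these proteins, and in the acute phase response interleukin-6 raises several of them, the fibrinogen chains among the best known.

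The promoters of the 3 fibrinogen chain genes and of C4bpa, which encodes a chain of the C4b-binding protein, are shown because these 4 genes varied together between animals, as described further on. Each sequence is the 250 bases before the gene's start from RefSeq on the GRCr8 assembly, 5′ to 3′ on the gene's strand, with CTGGGA, the core of interleukin-6 response elements, in capitals on either strand (TCCCAG where it lies on the other strand). Fga lies at chr2:170671919-170672168 on the plus strand, Fgb at chr2:170700876-170701125 on the minus strand, Fgg at chr2:170652833-170653082 on the plus strand and C4bpa at chr13:44663472-44663721 on the minus strand.
Fga: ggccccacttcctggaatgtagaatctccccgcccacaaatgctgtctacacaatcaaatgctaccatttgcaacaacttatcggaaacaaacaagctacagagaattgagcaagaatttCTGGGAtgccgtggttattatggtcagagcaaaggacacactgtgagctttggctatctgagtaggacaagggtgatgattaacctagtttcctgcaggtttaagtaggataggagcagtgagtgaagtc
Fgb: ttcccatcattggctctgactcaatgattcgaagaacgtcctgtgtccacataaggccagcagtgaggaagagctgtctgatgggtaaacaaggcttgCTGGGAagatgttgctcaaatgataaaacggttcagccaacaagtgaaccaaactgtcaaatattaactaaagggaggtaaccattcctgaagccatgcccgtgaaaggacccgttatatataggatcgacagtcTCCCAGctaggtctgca
Fgg: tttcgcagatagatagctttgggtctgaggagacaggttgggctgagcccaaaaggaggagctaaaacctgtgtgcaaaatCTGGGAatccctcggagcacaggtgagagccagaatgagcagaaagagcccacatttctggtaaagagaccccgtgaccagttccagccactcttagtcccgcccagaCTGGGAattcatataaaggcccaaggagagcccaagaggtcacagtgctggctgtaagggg
C4bpa: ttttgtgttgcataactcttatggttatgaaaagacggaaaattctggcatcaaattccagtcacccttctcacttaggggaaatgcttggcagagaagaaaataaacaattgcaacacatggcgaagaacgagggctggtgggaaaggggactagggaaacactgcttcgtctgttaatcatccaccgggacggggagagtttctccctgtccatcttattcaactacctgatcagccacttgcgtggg

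The 3 fibrinogen chain genes are neighbours on chromosome 2. CTGGGA stood 130 bases before the start of Fga, 152 bases and, on the other strand, 17 bases before that of Fgb, and 169 and 61 bases before that of Fgg. The C4bpa window did not contain these letters. The promoter table held 28 of the 35 measured genes. Within the same 250 bases, CTGGGA was present in 14 of the 28, or 50%, and in 25.78% of all 27457 promoters. TTGCNNAA, written for C/EBP, was present in 11 (39.29%, against 9.196% of all), GTTAAT, written for an HNF1 half-site, in 9 (32.14%, against 6.465%) and TTCNNNGAA, written for STAT, in 7 (25%, against 7.524%). Both strands were searched and the motifs may overlap. A match describes the letters and does not show that a factor binds.

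The signal of the members was high. The median log2 value over 36 animals was 11.83 for the complement genes and 12.20 for the coagulation genes, beside 5.87 for all genes. Of the 35 members, 26 lay at 11 or more, as did 414 of the 14217 genes. The value of a probe set depends on its own probes, so these values place a gene in the range of the array and do not order the amounts of different messages.

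Among the genes that start complement, C1s and C1r, the proteases of the classical pathway, averaged 11.98 and 11.86. Mbl2 and Mbl1, the mannose-binding lectins, averaged 11.94 and 10.47, and the lectin-associated proteases Masp2 and Masp1 averaged 10.36 and 8.92. C3, on which the pathways converge, averaged 13.60. Cfd, the protease of the alternative pathway that adipose tissue is known to make, averaged 7.27, the lowest value among the members and the 81.8th percentile of all probe sets. The terminal genes C9, C8g, C8b, C8a and C5 averaged 12.54, 11.92, 11.81, 11.46 and 10.55, with C6 below them at 8.38. Of the regulators, Vtn averaged 13.11, C4bpa 12.51, Cfi 12.50, Serping1, the inhibitor of C1 and of the contact proteases, 11.83 and C4bpb 11.71.

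The fibrinogen chain genes had the brightest probe sets of the coagulation arm, with means of 13.75 for Fgg, 13.58 for Fga and 13.58 for Fgb. The vitamin K-dependent procoagulant genes followed with F2, which encodes prothrombin, at 12.89, F9 at 12.29 and F10 at 11.41. F5, the cofactor of F10 in the activation of prothrombin, averaged 9.55. The contact system gene F12 averaged 11.67 and Klkb1, plasma prekallikrein, 11.40. The anticoagulant genes Serpinc1 (antithrombin), Serpind1 (heparin cofactor II), Proc (protein C) and Pros1 (protein S) averaged 13.27, 12.28, 11.88 and 10.51. In fibrinolysis, Plg, the precursor of plasmin, averaged 12.93, and its opponents Cpb2 and Serpinf2 12.12 and 10.95.

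**Figure D1:**
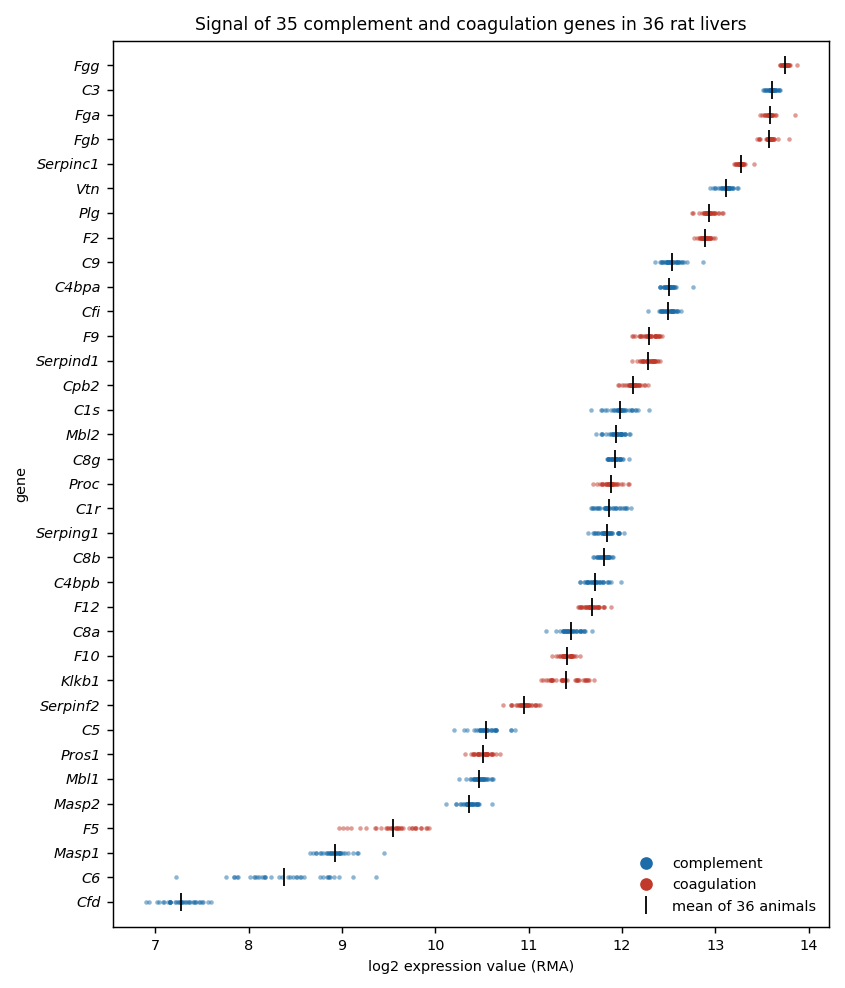
Log2 expression value (x axis) of each of the 35 measured genes (y axis), with 1 point per animal and a vertical bar at the mean of 36 animals; complement in blue, coagulation in red. The points of Fgg lie within 0.18 of each other and those of C6 span 2.15; positions of different genes come from different probe sets and do not order message amounts.

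No member of either arm passed the threshold of 0.05 after adjustment (limma, Benjamini-Hochberg over 31042 probe sets) at any of the 5 doses. None passed in the F test over the doses, the slope over dose rank or the contrast of all dosed animals with vehicle. The share of all probe sets past that threshold was 0% in each of these comparisons. At an unadjusted p under 0.05 in limma, 2 of 35 members were reached at 0.1 mg/kg (5.71%, beside 5.62% of all probe sets), 0 at 0.94 mg/kg (beside 4.16%), 2 at 9.4 mg/kg (beside 4.85%), 1 at 94.3 mg/kg (2.86%, beside 6.9%) and 2 at 943 mg/kg (beside 5.74%). The F test, the slope and the contrast of all dosed animals reached 0 members, beside 5.35%, 5.68% and 5.54% of all probe sets. The members' shares were thus near or below the background in these comparisons under the settings of this fit. Fitting the variance as a trend over signal with robust estimation, which gave 5.75% of all probe sets at 943 mg/kg, reached 7 members there (20%): C8a, C9, Serping1, Vtn, F10, Plg and Serpinf2, each with an adjusted p of 0.862 in limma. Other settings also gave more members at 943 mg/kg: 5 (14.3%, beside 5.94% of all) with the mean of a gene's probe sets, and 4 (11.4%) with the brighter 50% of probe sets, array weights or centring (beside 6.55%, 6.00% and 5.65%). None of these members passed after adjustment.

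The intervals bound the dose differences as read on the brightest probe set of each gene. The 95% interval of the difference from vehicle lay within 1.2-fold in both directions for 29, 33, 32, 31 and 33 of the 35 members in ascending order of dose. For all probe sets this share was 64.3%, 65.8%, 65.0%, 62.9% and 63.6%. The width of an interval follows the spread between animals, which had a median SD of 0.0785 for members and 0.145 for all probe sets. Members are also brighter (median 11.88, against 4.62), and the share for genes of like signal is not given here. Within 1.5-fold lay 34 of 35 members at each dose, and C6 was the exception each time. The limit is set by 6 animals per group and applies to the difference on the scale of each probe set. Another probe set can read a larger difference: a dimmer one of Fga differed by -0.18 ± 0.102 at 943 mg/kg, as described below.

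Small downward differences were more common than upward ones. At 943 mg/kg, 15 of 19 complement genes and 16 of 16 coagulation genes had a mean below vehicle, with median differences of -0.07 and -0.05. Of all probe sets, 49.7% were higher and their median difference was -0.00078. Directions among genes of like signal are not given here. At 0.1 mg/kg, 16 of 19 and 14 of 16 were lower, with medians of -0.06 and -0.04. At 0.94, 9.4 and 94.3 mg/kg, 12, 13 and 15 complement genes and 12, 12 and 11 coagulation genes were lower, and the medians lay between -0.03 and -0.02. The 5 comparisons share the same 6 vehicle animals and the members vary together between animals, so neither the doses nor the genes are independent counts. Centring the arrays on their medians or normalizing them again left every one of these medians below 0. Single animals moved several of the smaller medians by over 1.5 times: with 1 animal left out at a time, those at 0.94, 9.4 and 94.3 mg/kg ran from -0.04 to 0.0066. The complement median turned to 0.0066 at 9.4 mg/kg without replicate 4 of that group, and to -0.0036 at 0.94 mg/kg without replicate 2 of that group. The coagulation median became -0.018 at 0.1 mg/kg without replicate 6 of that group, and -0.014 at 94.3 mg/kg without vehicle replicate 4.

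**Figure D2:**
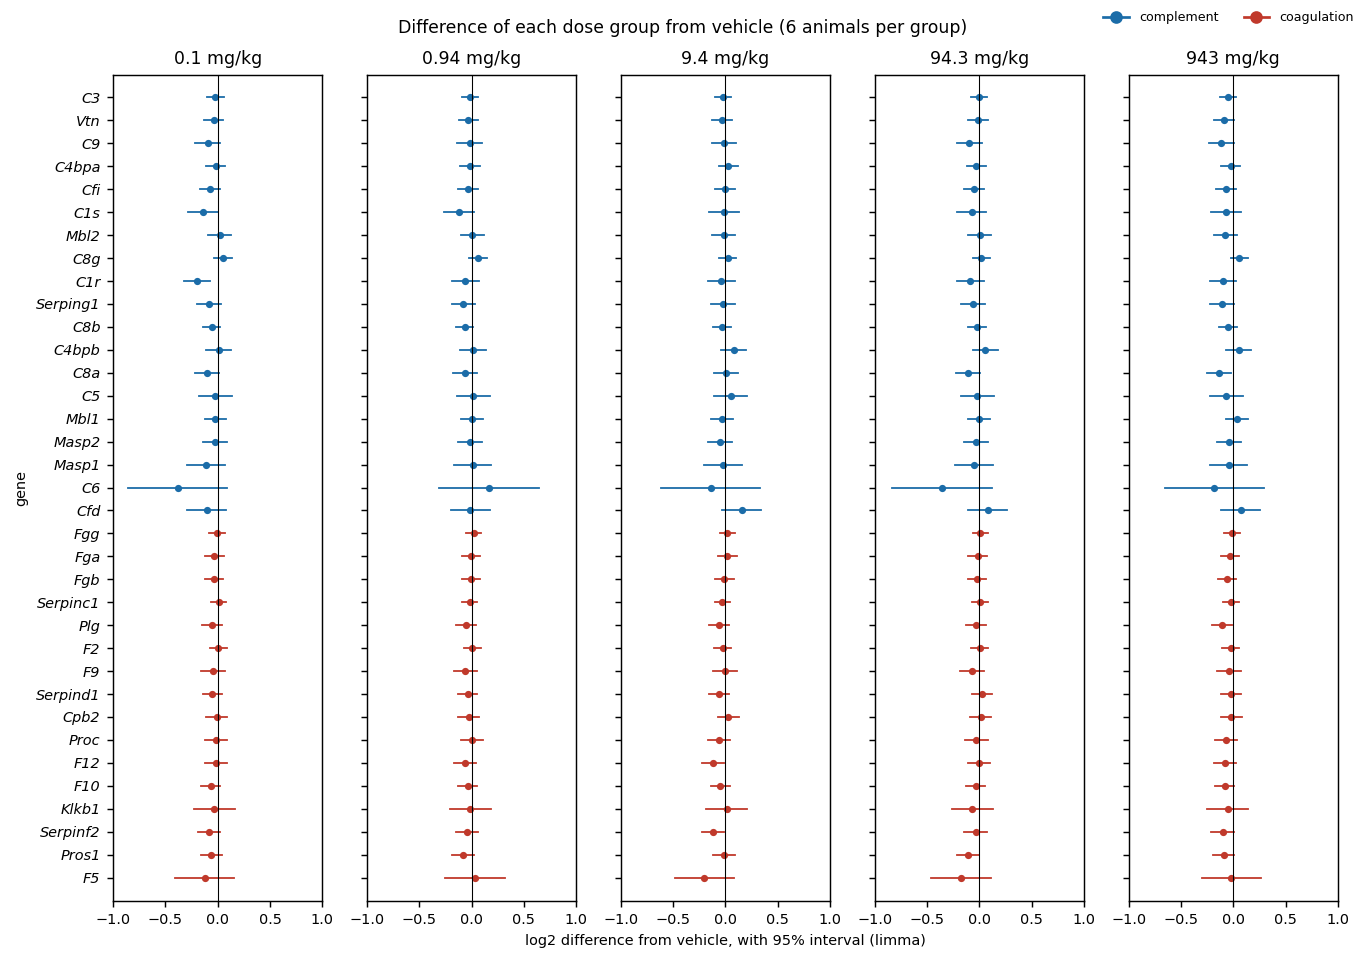
Log2 difference from vehicle (x axis, point) with its 95% limma interval (line) for each member (y axis) at the 5 doses, 6 animals per group; complement in blue, coagulation in red. Most intervals lie within 1.2-fold of no difference, and the widest is that of C6, whose difference ran from -0.38 to 0.17.

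The complement mean over 19 genes was 11.33 ± 0.024 in vehicle (SD, n = 6). It was 11.26 ± 0.023, 11.32 ± 0.056, 11.33 ± 0.085, 11.29 ± 0.034 and 11.28 ± 0.040 in ascending order of dose. Every animal at 0.1 mg/kg lay at or below 11.30 and every vehicle animal at or above 11.31, while at the other doses the animals overlapped vehicle. The gap at 0.1 mg/kg was narrow, from 11.2997 to 11.3072. C6, the most variable of the 19 genes, differed by -0.38 at that dose. How often the means of other gene sets separate from vehicle in this way was not counted. The coagulation mean over 16 genes was 12.16 ± 0.016 in vehicle and 12.12 ± 0.053, 12.14 ± 0.030, 12.12 ± 0.050, 12.13 ± 0.035 and 12.11 ± 0.035 at the doses. Its vehicle animals lay between 12.14 and 12.18, and each dose group overlapped that range. In pieces of whole liver, fewer cells of a type and less RNA per cell cannot be told apart.

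**Figure D3:**
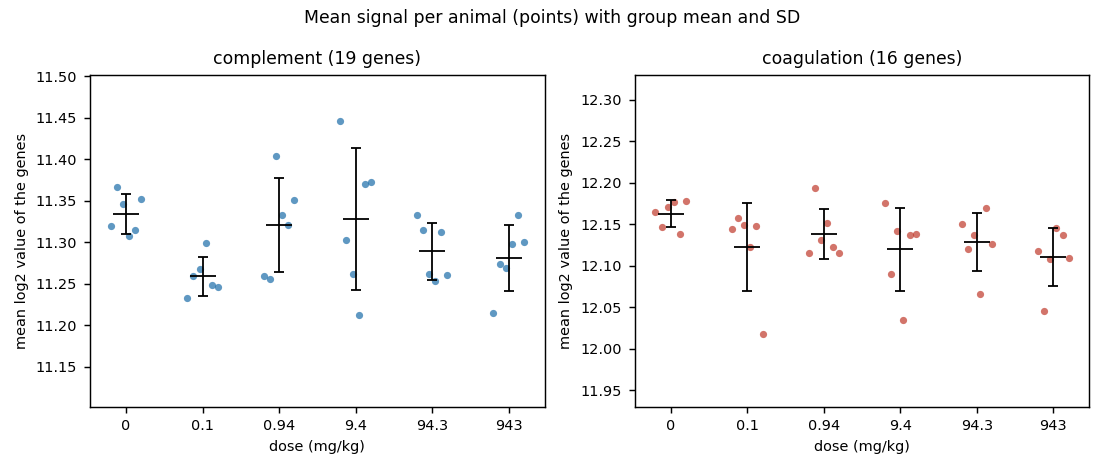
Mean log2 value of the 19 complement genes (left) and of the 16 coagulation genes (right) in each animal (point) by dose in mg/kg, with group mean (bar) and SD (whisker), n = 6. At 0.1 mg/kg the complement means do not overlap vehicle, with a narrow gap from 11.2997 to 11.3072. In that group, 1 animal has the lowest coagulation mean of all, 12.02.

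C1r had the smallest unadjusted p of the members. Its value was 11.73 at the lowest, 11.97 at the median and 12.10 at the highest in vehicle, and 11.67, 11.72 and 11.91 at 0.1 mg/kg. The ranges overlapped, with 3 of 6 animals at 0.1 mg/kg below every vehicle animal. The difference was -0.20 ± 0.063 (SE), with an adjusted p of 0.823 in limma. At the higher doses it was -0.06, -0.04, -0.09 and -0.10, so it did not grow with dose, and the slope over dose rank was -0.0042 ± 0.012.

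C1s, the partner of C1r in the C1 complex, ran from 11.92 through a median of 12.06 to 12.18 in vehicle and from 11.77 through 11.92 to 12.10 at 0.1 mg/kg. The difference was -0.14 ± 0.069 (adjusted p 0.886 in limma) and the ranges overlapped. The recognition subunits of the same complex, C1qa, C1qb and C1qc, which macrophages make, differed by -0.12, -0.19 and -0.16 at that dose with none past the adjusted threshold.

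C8a, which encodes a chain of the pore-forming C8, ran from 11.43 through 11.55 to 11.59 in vehicle and from 11.29 through 11.39 to 11.48 at 943 mg/kg. Of the 6 animals at 943 mg/kg, 5 lay below the lowest vehicle animal. The difference was -0.13 ± 0.056 (adjusted p 0.865 in limma), and those at 0.1, 0.94, 9.4 and 94.3 mg/kg were -0.11, -0.07, 0.0028 and -0.11. At 943 mg/kg, the genes of the other C8 chains, C8b and C8g, differed by -0.05 and 0.06, and C9, which lines the pore, by -0.11.

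Plg ran from 12.91 through 12.96 to 13.08 in vehicle and from 12.77 through 12.88 to 12.93 at 943 mg/kg. As with C8a, 5 of the 6 dosed animals were below the vehicle range. The difference was -0.11 ± 0.047 (adjusted p 0.865 in limma), with -0.05, -0.05, -0.06 and -0.03 at the lower doses.

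Serpinf2, the plasmin inhibitor, ran from 10.93 through 11.02 to 11.13 in vehicle and from 10.82 through 10.90 to 10.99 at 9.4 mg/kg, where 4 of 6 animals were below the vehicle range. Its difference was -0.12 ± 0.053 there (adjusted p 0.980 in limma). F12, which starts the contact pathway, ran from 11.60 through 11.74 to 11.80 in vehicle and from 11.54 through 11.59 to 11.69 at 9.4 mg/kg, with a difference of -0.12 ± 0.052 (adjusted p 0.980 in limma). Pros1 ran from 10.49 through 10.60 to 10.62 in vehicle and from 10.39 through 10.46 to 10.55 at 94.3 mg/kg, with a difference of -0.11 ± 0.050 (adjusted p 0.678 in limma). For F12 3 of 6 and for Pros1 4 of 6 animals fell below the vehicle range, and the remaining animals overlapped it.

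The brightest probe sets of C3 and the fibrinogen chains differed little from vehicle at 943 mg/kg. C3 ran from 13.54 through 13.63 to 13.68 in vehicle and from 13.51 through 13.59 to 13.60 at 943 mg/kg, a difference of -0.05. Fgg ran from 13.69 through 13.75 to 13.79 in vehicle and from 13.70 through 13.74 to 13.77 at 943 mg/kg, a difference of -0.01. Both genes overlapped vehicle at that dose, and their F test over the doses gave adjusted p values of 0.980 and 0.994 in limma. Fgb ran from 13.58 through 13.60 to 13.63 in vehicle and from 13.45 through 13.56 to 13.61 at 943 mg/kg, a difference of -0.06 ± 0.044. There, as at 0.1 mg/kg, 4 of 6 animals lay below the vehicle range. Fga differed by -0.03 at both of these doses on its brightest probe set.

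Fga has a second probe set, lower on the scale with a mean of 11.63, on which the differences were larger. It ran from 11.55 through 11.68 to 11.87 in vehicle and from 11.35 through 11.55 to 11.64 at 943 mg/kg, with 3 of 6 animals below the vehicle range. The difference was -0.18 ± 0.102 (adjusted p 0.868 in limma), and at 0.1 mg/kg it was -0.13, with 4 of 6 animals below. Between animals, this probe set followed the brightest with r = 0.89 but with an SD of 0.184, against 0.059. For Fga, the size of a difference thus depended on the probe set read.

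The spread between animals was small for most members on their brightest probe sets. After removal of the 6 group means, the SD had a median of 0.0892 in the complement arm and 0.0703 in the coagulation arm, against 0.139 over all genes. Part of this goes with signal: among genes at 11 or more, the median was 0.0688 for the 26 members and 0.0826 for all 414. Across the 35 members, level and SD had r = -0.70 (rho = -0.71), as a description across genes that share the arrays. Fgg had the lowest SD, 0.0341, with all 36 animals within 1.13-fold. Fgg has 1 probe set, and for Fga, also bright, the dimmer probe set had an SD of 0.184 against 0.059. These SDs thus describe the probe set read and may not give the spread of the message.

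C6 was the most variable member, with an SD of 0.437 and a 4.44-fold range over animals. In vehicle, its values were 8.06 at the lowest, 8.52 at the median and 8.97 at the highest. At the doses in ascending order, the lowest, median and highest were 7.76, 8.10 and 8.55, then 7.84, 8.82 and 9.37, then 7.22, 8.49 and 9.12, then 7.88, 8.10 and 8.84, and last 7.85, 8.35 and 8.85. Every dose group overlapped vehicle, and the widest spread, at 9.4 mg/kg, came from animals on both sides of the vehicle range. The differences from vehicle were -0.38, 0.17, -0.14, -0.36 and -0.18 with an SE of 0.234, and the F test gave an adjusted p of 0.931 in limma.

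F5 came next with an SD of 0.258 and a 1.96-fold range. It ran from 9.47 through 9.60 to 9.85 in vehicle and from 9.09 through 9.71 to 9.85 at 943 mg/kg. Animals at or below 9.09 occurred at 0.1, 94.3 and 943 mg/kg, beside animals at or above 9.85 in the same groups. Its differences from vehicle were -0.13, 0.03, -0.20, -0.18 and -0.02 with an SE of 0.140. Cfd (SD 0.163) and Masp1 (SD 0.157) also varied, and both are among the dimmest members.

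Klkb1 varied although it is bright, with an SD of 0.172. Its 36 values left a gap between 11.41 and 11.50, with 22 animals below and 14 above, a pattern picked out after the values were seen. The animals above the gap numbered 2, 2, 3, 2, 3 and 2 from vehicle to the highest dose, so both sides occurred in every group. Of the 14216 other genes, Luc7l2 and Fam149a had the highest residual correlation with Klkb1, both r = 0.68 over 36 animals (0.64 and 0.63 without the 2 farthest animals). In the RefSeq gene order of chromosome 16, Fam149a is 2 genes from Klkb1. Cyp4v3, the gene between them, had r = -0.31, and F11, on the other side of Klkb1, has no value here.

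**Figure D4:**
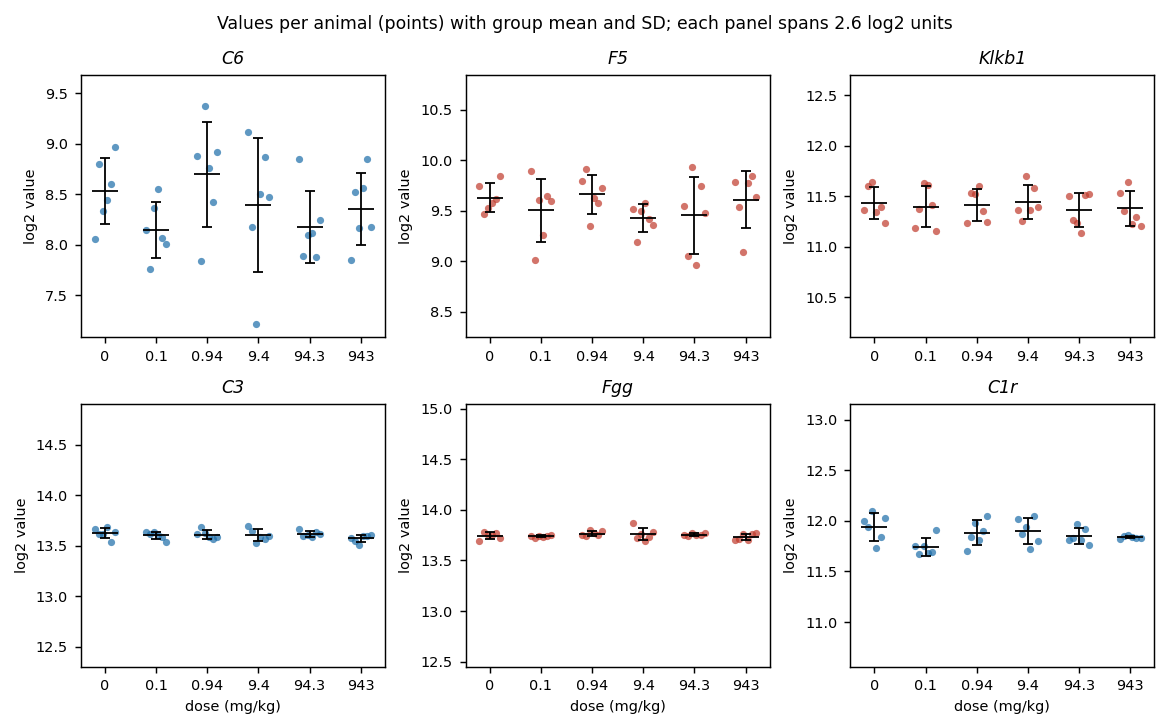
Log2 value in each animal (point) by dose in mg/kg for C6, F5, Klkb1, C3, Fgg and C1r, with group mean (bar) and SD (whisker), n = 6; each panel spans 2.6 log2 units. C6 spreads over 2.15 units and F5 over 0.97, and Klkb1 falls on both sides of a gap in every group. C3 and Fgg hardly spread on the probe sets read.

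Members varied together between animals. Over 36 animals, with group means removed, the median r was 0.144 over the 171 pairs of complement genes, 0.250 over the 120 pairs of coagulation genes and 0.146 over the 304 pairs between the arms. For all pairs of genes it was 0.002, and for pairs of the 414 genes at 11 or more 0.0074. Of the 595 member pairs, 15.3% had r of 0.5 or more, against 0.971% of all gene pairs and 4.24% of pairs at 11 or more. These r are descriptions: the points share arrays and normalization, and bright genes resemble each other more than dim ones.

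By Pearson's r, the closest pairs were Fga with Fgb (r = 0.83, rho = 0.60) and Fga with Fgg (r = 0.80, rho = 0.60), while Fgb and Fgg had r = 0.70, below several pairs of other members. C4bpa joined them with r = 0.79 to Fgg and 0.72 to Fga. Replicate 1 of the 9.4 mg/kg group carried part of this: without it, Fga and Fgb had r = 0.63, Fga and Fgg 0.59, and C4bpa and Fgg 0.62. Without the 2 animals farthest from the median in Fga, Fga had r = 0.55 with Fgb and 0.52 with Fgg. Without the 2 farthest in C4bpa, Fga and C4bpa had r = 0.25. Fgb and Fgg had r = 0.36 without the 2 farthest in Fgb. The other probe sets of Fgb are dim (means of 4.54 and 2.72) and did not follow it (r = -0.08 and -0.18). Averaging the probe sets of each gene therefore left r = 0.05 for Fga and Fgb.

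A further set joined fibrinolysis, the common coagulation pathway and Masp2. Plg and Serpinf2, the plasmin precursor and the plasmin inhibitor, had r = 0.78 (rho = 0.76), with r below that of Fga and Fgb. They kept r = 0.72 without the 2 animals farthest in Plg. That value and the rho lay above those of Fga and Fgb. Masp2 and Cpb2 had r = 0.76, F10 and Serpinc1 0.75, F10 and Plg 0.74, and F2 and Plg 0.73. Without the 2 animals farthest in the first-named gene of each pair, these fell to 0.62, 0.55, 0.59 and 0.57. A second Masp2 probe set of similar signal (10.33, against 10.36) followed the one used with r = 0.67, and its r with Cpb2 was not computed. Another set lay in complement, with r = 0.77 for C8a and Cfi and 0.69 for C1s with each of them. C8a and Cfi fell to r = 0.48 without replicate 4 of the 9.4 mg/kg group, the animal in which both were lowest. C1s fell to 0.41 with Cfi and 0.35 with C8a without the 2 animals farthest in C1s.

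Some members ran against the others. Mbl2 had r = -0.57 with Fga, -0.54 with C4bpb and -0.49 with Fgb. Replicate 1 of the 9.4 mg/kg group, where Mbl2 was at its lowest of the 36, carried part of this: without it the values were -0.37, -0.42 and -0.29. F5 had r = -0.58 with Vtn and -0.47 with C8a. Without the 2 animals farthest in Vtn and in C8a, respectively, these values were -0.54 and -0.60. Mbl1, the other mannose-binding lectin, had r = -0.11 with Mbl2. A second Mbl2 probe set, with a mean of 9.79, followed the one used with r = 0.64, and its r with other members was not computed.

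**Figure D5:**
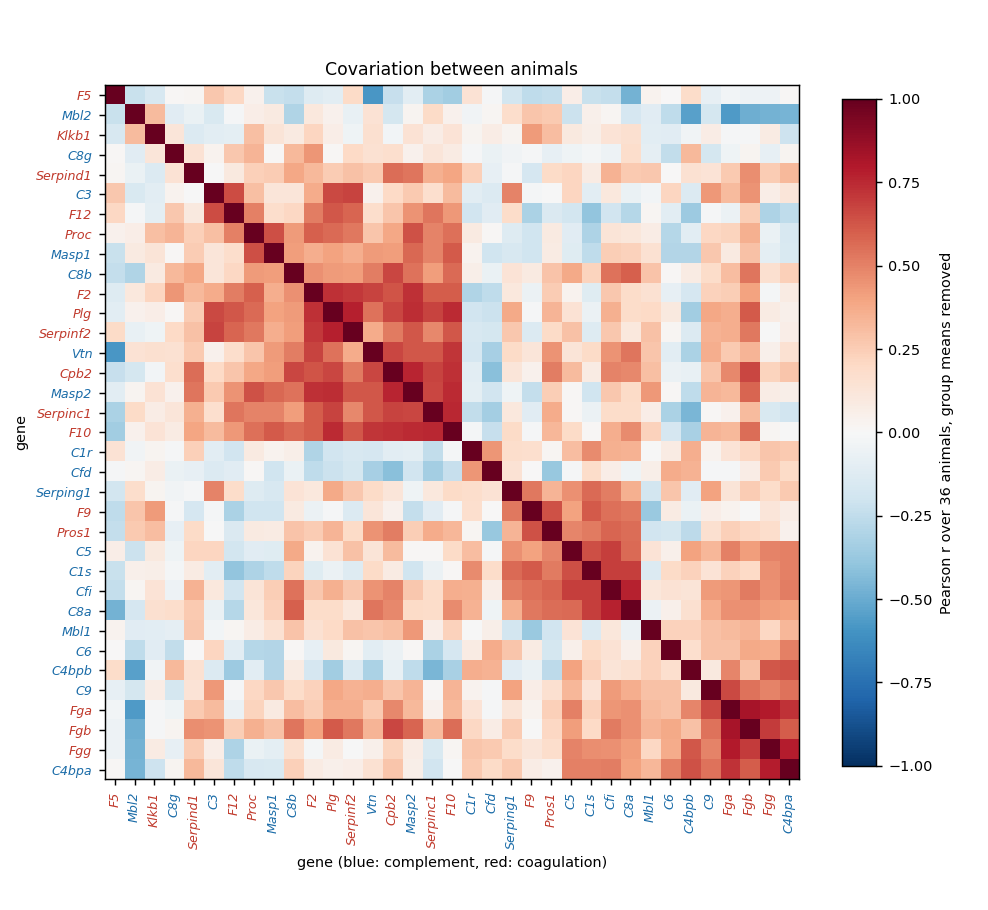
Pearson r between members over 36 animals after removal of group means (colour, from -1 in blue to 1 in red), genes on both axes ordered by average-linkage clustering; complement names in blue, coagulation names in red. The fibrinogen chains stand beside C4bpa at the lower right, and both arms mix within the block that holds Plg, Serpinf2, F10 and Masp2.

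A few animals set the ends of the range. Replicate 1 of the 9.4 mg/kg group had the highest complement mean relative to its group (0.118 above it) and the highest coagulation one (0.056). It was above its group mean in 29 of 35 members, was the highest of the 36 for 8 of them and the lowest for 1. In the same animal, 15 of 17 acute phase genes lay above their group means, by 0.309 on average. All 5 measured neutrophil markers did too, by 1.08 on average (Lcn2 is on both lists), though their level remained low at 5.42. Relative to the group, both lists were at their highest of the 36 animals. So were the endothelial and cholangiocyte lists, by 0.150 and 0.273. The stellate cell and erythroid lists ranked 2 of 36, lymphocytes 3, platelets 7, adipose and muscle 16 and macrophages 19. The hepatocyte and acinar lists ranked 35 and 36. The part of these lists in the members' values was not tested.

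Replicate 4 of the 9.4 mg/kg group was the opposite end for complement, 0.116 below its group, and was the lowest of the 36 for 13 members. Its acute phase genes averaged 0.159 below their group, with 4 of 17 above it. Replicate 6 of the 0.1 mg/kg group had the lowest coagulation mean relative to its group (0.106 below) and was the lowest for 11 members, with 2 of 16 coagulation genes but 8 of 19 complement genes above their group means. Replicate 2 of that group was the highest for 9 members. Animals at both ends thus came from the 0.1 and 9.4 mg/kg groups.

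The 2 arm means correlated with r = 0.36 over 36 animals (rho = 0.26), and with r = 0.10 without the 2 animals farthest in complement. The coagulation mean had r = 0.51 (rho = 0.53) with the acute phase list and kept 0.49 without the 2 animals farthest in coagulation. The complement mean had r = 0.41 (rho = 0.12) with that list and 0.02 without the 2 animals farthest in complement. Markers of macrophages went with complement at r = 0.39 and with coagulation at r = -0.27, pancreatic acinar markers at -0.55 and -0.31, and endothelial markers at 0.37 and 0.49. Without the 2 animals farthest in complement, the complement values were 0.52 for macrophages, -0.37 for acinar and 0.17 for endothelial markers. Without the 2 farthest in coagulation, the coagulation values were -0.15, -0.30 and 0.41. Hepatocyte markers had r = -0.28 and -0.14, and the array median -0.18 and -0.47. The 3′ minus 5′ signal of the actin and GAPDH control probe sets, a measure of RNA quality, had r = -0.33 with complement (-0.34 without the 2 farthest animals) and -0.07 with coagulation, and its group means lay between 0.532 and 0.586. The acinar list was dim, with a median level of 3.71, and only Cela1, at 9.70, was bright. With the complement mean, Cela1 had r = -0.41 and the other acinar genes ran from -0.30 to 0.04. The part of these lists, of RNA quality and of the array median in the arm means was not tested.

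Outside the members, the genes closest to the complement mean were Kat2b (r = 0.69), Cpne8 (0.68), Nras (0.67), Psap (0.66) and Tsn (0.65). Those closest to the coagulation mean were Dlc1 (0.75), Man2a1 (0.75), C13h1orf115 (0.73), Arfgef1 (0.72) and Zdhhc6 (0.72). They were chosen as the highest among all other measured genes, so their r is high by choice.

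Of 28 other complement genes, 18 were measured, and limma called 0 of them after adjustment at each dose. At an unadjusted p under 0.05, 1, 1, 1, 0 and 0 were reached in ascending order of dose, and the median difference at 943 mg/kg was -0.0075. The shares of all probe sets reached at these doses were 5.62%, 4.16%, 4.85%, 6.9% and 5.74%. The smallest p in the F test belonged to Fcnb, a ficolin of the lectin pathway, with differences of -0.08, -0.19, 0.14, -0.16 and 0.01 (adjusted p 0.918 in limma). Itgb2, the shared chain of the complement receptor integrins, reached 0.22 at 9.4 mg/kg, and the membrane inhibitors Cd55 and Cd59b ran from -0.08 to 0.12 and from -0.12 to 0.11.

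Of 27 other coagulation and fibrinolysis genes, 24 were measured, and 0 passed at any dose. At an unadjusted p under 0.05, 3, 0, 0, 1 and 3 were reached, beside 5.62%, 4.16%, 4.85%, 6.9% and 5.74% of all probe sets. The median difference at 943 mg/kg was 0.03. Mcfd2, which forms with Lman1 the cargo receptor that carries F5 and F8 out of the endoplasmic reticulum, was above vehicle at each dose, by 0.16, 0.06, 0.09, 0.16 and 0.16 (SE 0.0492; F test adjusted p 0.886 in limma). Its partner Lman1 differed by -0.25, -0.08, -0.05, -0.05 and -0.08. The endothelial receptor Thbd and the protease receptor F2rl1 had differences of 0.04 and 0.22 at 943 mg/kg. F2rl1 was dim, with a mean of 4.33, below the lowest array median of 4.59.

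All 4 genes of the vitamin K cycle, which recharges the cofactor for F2, F9, F10, Proc and Pros1, were measured, with 0 past the adjusted threshold. The unadjusted p was under 0.05 for 1, 0, 1, 1 and 1 of them, beside 5.62%, 4.16%, 4.85%, 6.9% and 5.74% of all probe sets. Vkorc1, the vitamin K epoxide reductase, differed by 0.02, 0.13, 0.10, 0.14 and 0.19 in ascending order of dose, with a slope over dose rank of 0.036 per step. Its F test gave an adjusted p of 0.924 in limma. Ggcx, the carboxylase of the cycle, differed by -0.12 at 943 mg/kg and followed the coagulation mean between animals with r = 0.54. Nqo1 and Vkorc1l1 differed by 0.12 and 0.08.

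Of 24 regulators of hepatic plasma protein genes, 21 were measured, and of 18 acute phase genes, 17, again with 0 past the adjusted threshold at any dose. At an unadjusted p under 0.05 in limma, 1, 0, 0, 2 and 0 regulators and 1, 0, 0, 1 and 1 acute phase genes were reached. Of all probe sets, 5.62%, 4.16%, 4.85%, 6.9% and 5.74% were. Hnf4a, a nuclear receptor of hepatocyte genes, differed by 0.29 at 94.3 mg/kg and by -0.02 at 943 mg/kg. Foxa2 differed by -0.72 and -0.39 at these doses with an SE of 0.304, Nfkb1 by 0.07 and -0.07, and Il6st, the signalling chain of the interleukin-6 receptor, by -0.12 and -0.09. Il6st followed the coagulation mean between animals with r = 0.61. Among acute phase genes, the metallothionein Mt2A differed by -0.72 and -0.64 at the highest doses (SE 0.288), and Mt1 by -0.16 and 0.08. Il1rn and Apcs differed by 0.10 and 0.04 at 943 mg/kg, and the whole acute phase list had group means from 10.09 to 10.14.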

How the data were processed

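Per the submitters' processing notes, the authors used RMA in affy, and the deposited table holds its log2 values for each probe set. No version of either is given in the sources used here. Per the series' design text, the authors tested with R/maanova, and limma was used here in its place. The labels number the replicates of a group and give no animal identifiers: each was taken as 1 animal, and p-values measure the spread between these samples.

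Of the probe sets, 57 array controls were left out and 31042 tested without a filter. The platform annotation gives 20826 of them 1 gene, 436 several and 9780 none. Symbols were checked by Entrez identifier against a RefSeq table, in which 20758 matched. All 36 arrays entered 1 linear fit of the 6 group means (lmFit, contrasts.fit and eBayes of limma 3.58.1 in R 4.3.3), with 30 residual degrees of freedom. P-values are two-sided and adjusted by Benjamini-Hochberg within a comparison over all probe sets. Variation between animals was described on residuals around the group means, with no test. The script was tested on simulated data.

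The members, gene lists, marker lists and motifs were chosen with earlier results of these data known. Named are all members, up to 4 genes per pathway or acute phase list with the smallest F test p, further list genes in background clauses, up to 5 genes nearest to each arm mean and, chosen after their values were seen, the neighbours of Klkb1. Alternatives were the brighter 50% of probe sets, array weights, robust estimation with a variance trend, a replicate block, centring, renewed quantile normalization, the mean of a gene's probe sets, fits of a dose group with vehicle, other dose scores and leaving out each animal.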

Additional observations from a re-analysis of the deposited data

Results flagged for a closer look

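Within each group of 6, an animal was picked out where its gap to the nearest other animal exceeded Dixon's 95% critical share of the group's range, for each member and for the 2 arm means. Chance picks out about 1 in 20 groups, and of 222 groups checked 20 were picked out.

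Replicate 4 of the 9.4 mg/kg group was lowest for C8a at 11.19, Cfi at 12.28, F9 at 12.14 and Masp2 at 10.22. Replicate 1 of that group was lowest for Mbl2 at 11.72, the gene that ran against fibrinogen between animals. Replicate 6 of the 0.1 mg/kg group was lowest for Fga at 13.50, Serpinf2 at 10.72 and the coagulation mean at 12.02, and highest for C1r at 11.91. Replicate 1 of that group was lowest for C8g at 11.86. Replicate 2 of the 943 mg/kg group was lowest for Plg at 12.77 and the coagulation mean at 12.04.

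In vehicle, replicate 1 was highest for Masp1 at 9.45 and Proc at 12.06, and replicate 5 was lowest for Mbl2 at 11.79. At 0.94 mg/kg, replicate 3 was highest for Masp1 at 9.17 and Fgb at 13.67, replicate 6 was highest for Fga at 13.61 and lowest for Cpb2 at 12.04, and replicate 2 was highest for F12 at 11.80.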

How the results depend on the processing

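Over 10 alternatives and 36 runs that each left out 1 animal, 1081 of 1172 recomputed values were labelled unchanged. For a count, this meant equal, or above 0 and within 1.5 times. For a gene's difference, it meant the same sign and no adjusted p under 0.05 in limma. For a median difference, it meant a move within the SD between animals, and for an SD or an r within its approximate standard error. The 1081 include many counts that could hardly move: the number of members past the adjusted threshold remained 0 throughout. With no member past it, no called value could reverse; the sign of the complement median at 9.4 mg/kg did turn, from -0.02 to 0.0066 without replicate 4 of that group. Counts of members at an unadjusted p under 0.05 in limma moved by more than 1.5 times as follows; the cause was not tested. At 0.1 mg/kg, renewed quantile normalization gave 1 (2.86% of members, beside 5.89% of all probe sets). At 0.94 mg/kg, array weights gave 1 (2.86%, beside 4.96%). At 9.4 mg/kg, the fit with vehicle alone gave 1 (2.86%). At 94.3 mg/kg, the variance trend gave 2 (5.71%, beside 6.97%) and the fit with vehicle alone 0. For fits with vehicle alone, the share of all probe sets was not counted. At 943 mg/kg, the variance trend gave 7, the mean of probe sets 5, the brighter 50% of probe sets, array weights and centring 4 each (20%, 14.3% and 11.4% of members, against 5.65% to 6.55% of all probe sets or genes under these settings), and the fit with vehicle alone 1. The F test gave 2 with the variance trend, 2 with array weights and 1 with centring. These were 5.71%, 5.71% and 2.86% of members, beside 5.28%, 6.47% and 5.2% of all probe sets. The slope gave 1 (2.86%) with the variance trend and 1 with renewed quantile normalization, beside 5.6% and 5.98%. All dosed animals against vehicle gave 3 (8.57%) with the variance trend and 2 (5.71%) with array weights, beside 5.62% and 5.61%. That contrast gave 1 each (2.86%) with the brighter 50%, centring and the mean of probe sets, beside 6.51%, 5.39% and 5.93%.

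With the replicate block, the count at 94.3 mg/kg was 0 (beside 6.91% of all probe sets). The F test and the contrast of all dosed animals gave 1 each (2.86%, beside 5.51% and 5.57%). The block changed no other count by over 1.5 times. The labels do not say what a replicate number marks. The median correlation of the deviations of same-numbered animals was 0.0026 (from -0.27 to 0.29), against -0.0094 for other numbers. Of 36 animals, 8 correlated best with their own number. These values cannot show that same-numbered animals shared nothing.

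Leaving out 1 animal at a time gave counts from 1 to 3 at 0.1 mg/kg, 0 to 1 at 0.94, 0 to 3 at 9.4, 0 to 2 at 94.3 and 1 to 4 at 943 mg/kg. The F test ranged from 0 to 4 (4 without replicate 4 of 9.4 mg/kg), the slope from 0 to 1 and all dosed animals from 0 to 3 (3 without vehicle replicate 5). Vehicle replicates 2 and 5 and replicate 3 of 943 mg/kg each gave 4 at 943 mg/kg when left out, and replicate 1 of that group 1. The share of all probe sets was not counted in the runs that left out an animal. Dim members such as Cfd and C6 stand closer to background than the others, and 6 animals per group limit the precision.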
